A study of Mus musculus with 6 samples.

Results

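The 8 genes described here encode transcription factors of the ETS family, namely Etv2, Fli1, Erg, Ets1, Ets2, Elk3, Etv6 and Elf1. They were chosen by name as ETS factors of the blood and endothelial programme, and each was read from the 1 array feature annotated to it alone, which gave 8 of the 30702 genes measured. Expression was profiled in a mouse embryonic stem cell line labelled iRunx, grown as embryoid bodies, free-floating clumps that form tissues of all germ layers. On day 4, cells carrying the receptor Flk1 and lacking PDGFRα were sorted by flow cytometry, and their RNA was hybridised to 1 array per sample. The control group (n = 3 arrays) was iRunx cells without HOXB4, and the HOXB4 group (n = 3 arrays) was iRunx cells that carried tdTomato and the homeodomain factor HOXB4 from a retrovirus. The sources used here do not say whether control cells carried an empty virus, or whether a Runx transgene was switched on in either group. The samples are described as independent experiments of 1 cell line, so p-values measure the spread between those experiments.

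ETS factors share a DNA-binding domain that recognises a GGAA core. In mouse embryos and differentiating stem cells, Etv2 is switched on briefly in Flk1-positive mesoderm and is needed for both blood and endothelium to form. Fli1 and Erg, close relatives of each other, are expressed later, are maintained in endothelium and blood progenitors, and bind many of the genes that Etv2 first activates.

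RefSeq promoter windows of assembly GRCm38.p6 were at hand for 6 of the 8 genes. Fli1, which the array results below set against Etv2 together with Erg, had none, and neither had Ets1. The windows of Etv2, Erg and Elk3 are shown to describe how the ETS core itself is distributed at these genes. Each is the 250 bases before an annotated transcription start, read 5′ to 3′ on the gene's strand, with the ETS core GGAA, or TTCC for the opposite strand, in capitals. The Etv2 window is chr7:30635853-30636102 (minus strand), upstream of a start that lies 657 bases inside the annotated gene. The Erg window is chr16:95586594-95586843 and the Elk3 window chr10:93311160-93311409, both on the minus strand and at the 5′-most annotated end of the gene within 7 bases.
Etv2: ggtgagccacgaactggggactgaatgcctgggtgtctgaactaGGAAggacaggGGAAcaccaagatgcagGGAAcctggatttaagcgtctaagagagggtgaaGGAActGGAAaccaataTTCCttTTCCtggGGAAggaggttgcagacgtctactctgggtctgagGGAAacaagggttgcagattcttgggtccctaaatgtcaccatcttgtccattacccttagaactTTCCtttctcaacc
Erg: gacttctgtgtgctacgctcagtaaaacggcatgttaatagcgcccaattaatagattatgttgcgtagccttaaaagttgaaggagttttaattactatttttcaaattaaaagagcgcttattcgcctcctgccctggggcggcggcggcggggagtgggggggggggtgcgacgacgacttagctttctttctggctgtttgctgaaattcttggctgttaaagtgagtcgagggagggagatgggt
Elk3: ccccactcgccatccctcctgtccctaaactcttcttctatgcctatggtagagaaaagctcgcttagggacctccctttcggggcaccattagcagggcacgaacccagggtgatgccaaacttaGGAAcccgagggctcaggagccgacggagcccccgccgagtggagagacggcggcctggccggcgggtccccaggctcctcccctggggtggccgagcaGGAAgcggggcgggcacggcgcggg
The Etv2 window held 10 matches to GGAA on either strand, the Elk3 window 2 and this Erg window 0. Over 32851 such windows of all genes the median was 3 matches, 93.4% held at least 1, and 0.192% held 10 or more. Windows at 2 further Erg starts, inside the gene, held 4 and 2 matches, the Etv6 window 3, the Ets2 window 1, and the windows at 2 Elf1 starts 2 and 0. The longer form CCGGAA, which contains the core, was in 0 of these 9 windows and in 12.0% of all windows. The GATA core AGATAA was in 1 of the 9, at an inner Erg start, and in 9.99% of all windows. A match is a description of the sequence and not a binding site.

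Values are log2 RMA summaries, and each difference is HOXB4 minus control on that scale. All 8 genes lay above the median gene, at the 78.6th percentile of mean level or higher, and far above the background features, whose array medians were 3.06 to 3.15 against 5.10 to 5.22 for the median gene. Of the 6 arrays, HOXB4 replicate 2 stood apart from the other HOXB4 arrays and control replicate 2 from the other controls. On the first principal component over all genes, which held 53.2% of the variance, HOXB4 replicates 1 and 3 scored 43.8 and 34.7, control replicate 2 scored 7.46, and the other 3 arrays scored -23.8 (HOXB4 replicate 2), -25.0 and -37.1. Kdr, the gene of the sorting marker Flk1, was between 13.7 and 14.3 in every array. Pdgfra, the marker sorted against, had no feature of its own.

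Etv2, the early factor, was 12.31, 11.75 and 12.33 in control replicates 1 to 3 and 9.58, 12.06 and 10.16 in HOXB4 replicates 1 to 3. HOXB4 replicates 1 and 3 lay below every control, while HOXB4 replicate 2 lay among the controls, so the groups overlapped. The means were 12.13 ± 0.33 (SD, n = 3) and 10.60 ± 1.30 (SD, n = 3), a difference of -1.53 (SE 0.60; 95% confidence interval -2.96 to -0.11), which is 2.89-fold lower. In limma's moderated test, fitted over all genes, the unadjusted p was 0.0388 and the Benjamini-Hochberg adjusted p 0.605, so Etv2 did not pass. Without HOXB4 replicate 2, the array that lay among the controls, the difference was -2.26 and limma's adjusted p 0.0531, above the threshold of 0.05. It was -1.02 without HOXB4 replicate 1 (adjusted p = 0.906 by limma) and -1.31 without HOXB4 replicate 3 (adjusted p = 0.889).

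Fli1, an ETS factor that sustains endothelial and megakaryocytic genes, ran the other way. It was 10.95, 12.29 and 10.91 in control replicates 1 to 3 and 13.32, 10.91 and 13.39 in HOXB4 replicates 1 to 3. HOXB4 replicates 1 and 3 lay above every control, and HOXB4 replicate 2 was level with control replicates 1 and 3. The difference was 1.15 (SE 0.72; 95% confidence interval -0.57 to 2.87; adjusted p = 0.674 by limma), and 1.97 without HOXB4 replicate 2 (adjusted p = 0.155). It was 0.76 without HOXB4 replicate 1 (adjusted p = 0.938 by limma) and 0.73 without HOXB4 replicate 3 (adjusted p = 0.894).

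Erg, which maintains endothelial identity and junctions, was 7.84, 9.54 and 7.88 in control replicates 1 to 3 and 10.07, 7.79 and 8.80 in HOXB4 replicates 1 to 3. Here only HOXB4 replicate 1 exceeded all controls, because control replicate 2 lay above HOXB4 replicate 3. The difference was 0.47 (SE 0.67; 95% confidence interval -1.12 to 2.06; adjusted p = 0.840 by limma). It was -0.12 without HOXB4 replicate 1 and 1.03 without control replicate 2, so its sign rested on 1 array.

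**Figure D1:**
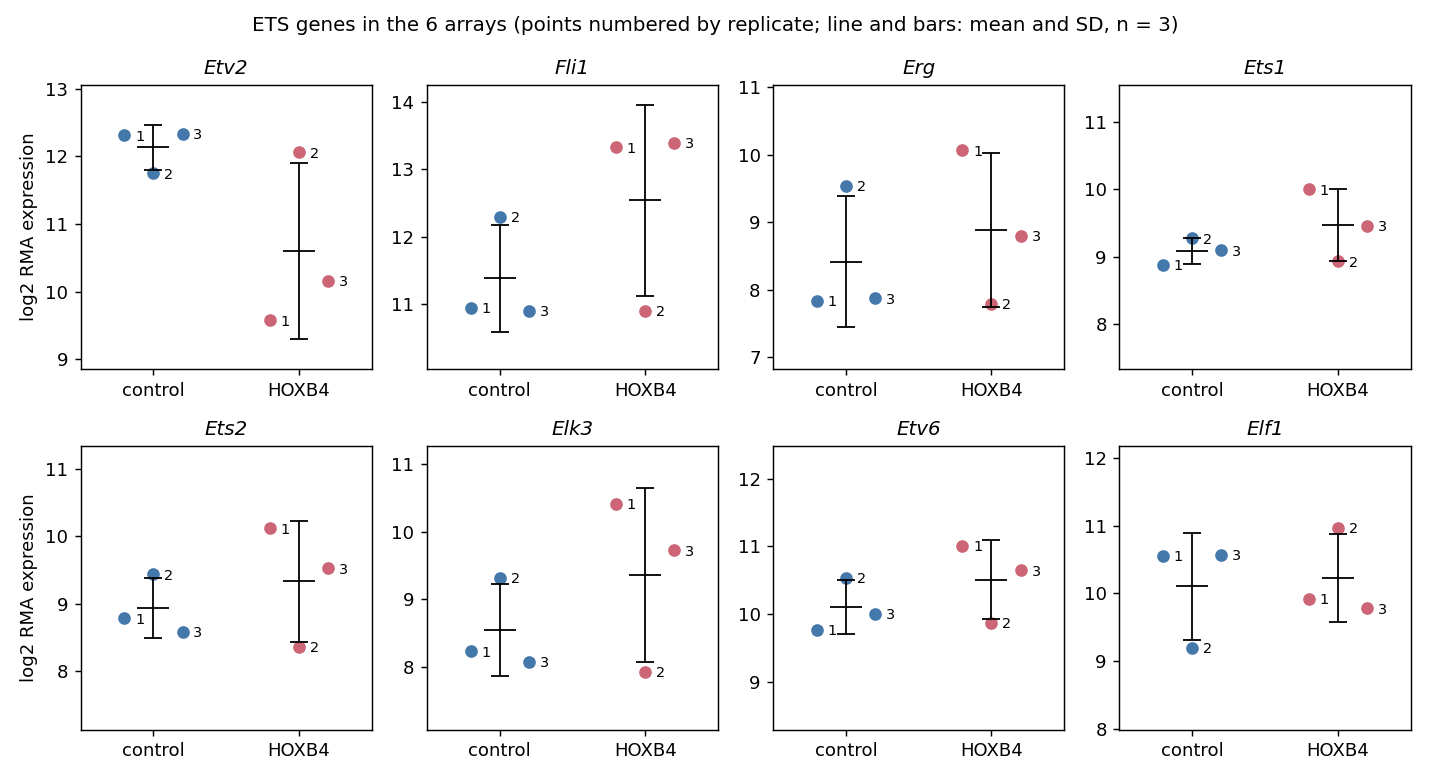
Log2 RMA expression of the 8 ETS genes, 1 panel per gene and 1 point per array, numbered by replicate, with the group mean and SD (n = 3); every vertical axis spans the same log2 range. HOXB4 replicate 2 (12.06 for Etv2, 10.91 for Fli1) lies closer to control replicates 1 and 3 than to HOXB4 replicates 1 and 3 in each panel. For Elf1 it is the highest array (10.98). Control replicate 2 (9.54 for Erg) is displaced from the other controls in the direction of HOXB4 replicates 1 and 3, and for Elf1 (9.20) it lies beyond them.

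Ets1 and Ets2, founding members of the family that respond to Ras and ERK signalling, had smaller differences of the same sign as Fli1. Ets1 was 8.88, 9.28 and 9.10 in control replicates 1 to 3 and 10.001, 8.94 and 9.46 in HOXB4 replicates 1 to 3, a difference of 0.38 (SE 0.26; adjusted p = 0.693 by limma). Ets2 was 8.78, 9.44 and 8.58 in controls and 10.12, 8.36 and 9.53 in HOXB4 cells, a difference of 0.40 (SE 0.45; adjusted p = 0.801 by limma). In both genes HOXB4 replicates 1 and 3 were above every control and HOXB4 replicate 2 was not. Ets1 lies next to Fli1 on chromosome 9, and Ets2 next to Erg on chromosome 16, with no protein-coding gene between them in either pair in the RefSeq annotation. The range over the 6 arrays was 2.48 for Fli1 against 1.12 for its neighbour Ets1, and 2.27 for Erg against 1.76 for Ets2.

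Elk3, a ternary complex factor that represses serum response genes and is abundant in embryonic endothelium, was 8.23, 9.32 and 8.07 in control replicates 1 to 3 and 10.41, 7.93 and 9.72 in HOXB4 replicates 1 to 3. Its difference of 0.81 (SE 0.65; 95% confidence interval -0.73 to 2.36; adjusted p = 0.727 by limma) was the next after that of Fli1 in size among the genes that lay higher. HOXB4 replicate 2 was the lowest of the 6 arrays. Etv6, a repressor required for definitive haematopoiesis in the bone marrow, was 9.77, 10.54 and 10.005 in controls and 11.01, 9.87 and 10.65 in HOXB4 cells, a difference of 0.41 (SE 0.32; adjusted p = 0.723 by limma). HOXB4 replicates 1 and 3 were above every control for Elk3 and Etv6 alike.

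Elf1, an activator expressed in blood and endothelium, did not share this order. It was 10.55, 9.20 and 10.57 in control replicates 1 to 3 and 9.93, 10.98 and 9.78 in HOXB4 replicates 1 to 3. HOXB4 replicate 2 was the highest array and control replicate 2 the lowest, and HOXB4 replicates 1 and 3 lay between the controls. The difference was 0.12 (SE 0.46; adjusted p = 0.950 by limma) and changed sign to -0.34 without control replicate 2 and to -0.25 without HOXB4 replicate 2.

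Set against each other per array, Etv2 and the later factors deviated in opposite directions in the same arrays. Relative to the mean of the controls, HOXB4 replicate 1 was at -2.55 for Etv2, 1.94 for Fli1 and 1.65 for Erg. HOXB4 replicate 3 was at -1.97 for Etv2, 2.00 for Fli1 and 0.38 for Erg. HOXB4 replicate 2 was at -0.07, -0.48 and -0.62 for these genes, so Etv2 was near the control mean and Fli1 and Erg were below it. Control replicate 2, with no HOXB4, was at -0.38 for Etv2, 0.91 for Fli1 and 1.12 for Erg, the same signs as HOXB4 replicates 1 and 3. Its Etv2 deviation was the smallest in size of these 3 arrays, while its Erg deviation exceeded that of HOXB4 replicate 3. HOXB4 replicates 1 and 3 also differed between themselves. From replicate 1 to replicate 3 the Fli1 values differed by 0.06, whereas Erg was lower by a log2 difference of -1.27, Elk3 by -0.69, Ets2 by -0.59 and Ets1 by -0.54, with 1 array behind each value.

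**Figure D2:**
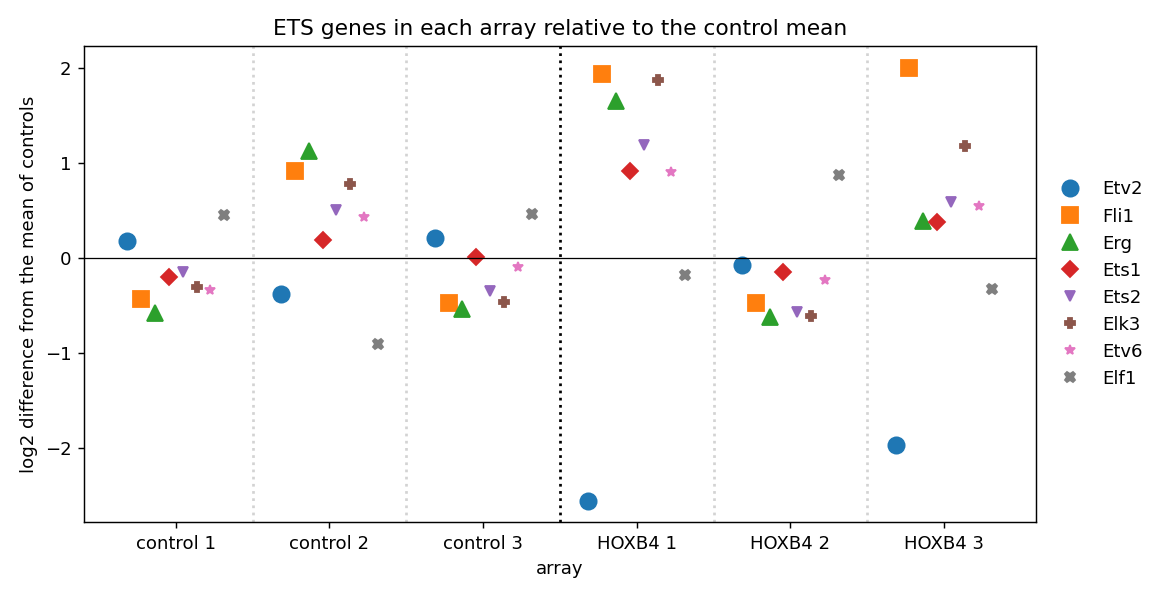
Log2 difference of each ETS gene from the mean of the 3 controls, in each of the 6 arrays; symbols mark genes, and the darker dotted line separates control from HOXB4 arrays. Etv2 is at -2.55 and -1.97 in HOXB4 replicates 1 and 3, where Fli1 is at 1.94 and 2.00, and all 8 genes lie within 0.87 of the control mean in HOXB4 replicate 2.

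In 6 of the 8 genes (Fli1, Erg, Ets1, Ets2, Elk3 and Etv6) the 3 highest arrays were HOXB4 replicates 1 and 3 and control replicate 2, and in the other 2, Etv2 and Elf1, these were the 3 lowest. These orders were seen in 8.96% and 10.2% of all genes, and in 14.1% and 12.6% of the genes at or above the median gene in mean level, as all 8 were. The order was chosen for description once the values were known, and it matches that of the arrays on the first principal component, so it is shared with many other genes. The 8 genes varied between arrays by a median range of 2.03, against 0.44 for all genes, a figure that was not restricted to genes of similar level. Their median difference was 0.40, with 7 above 0 and 1 below, where the median gene was at -0.04. That median was 0.13 without HOXB4 replicate 1, 0.81 without HOXB4 replicate 2 and 0.64 without control replicate 2, with 6 above 0 and 2 below in each.

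None of the 8 passed limma's test at an adjusted p of 0.05, and 0 of 30702 genes did (0%). At an unadjusted p of 0.05, 1 of the 8 was counted, beside 8.19% of all genes (2513 genes), and that was Etv2, lower in HOXB4 cells, as were 5.95% of all genes at that level. In 0 of the 8 did the groups not overlap, beside 13.5% of all genes. Without HOXB4 replicate 2, 46 genes passed (0.15%), and none of the 8 was among them. At the unadjusted level, 6 of the 8 were then counted, all but Erg and Elf1, beside 13.9% of all genes (4267 genes). In the other 5 fits that left out 1 array, 0 or 1 of the 8 was counted. When each array was left out in turn, the Etv2 difference ran from -2.26 to -1.02 and the Fli1 difference from 0.73 to 1.97. Those of Elk3 (0.28 to 1.53), Ets1 (0.11 to 0.65), Ets2 (0.01 to 0.89) and Etv6 (0.16 to 0.73) were also above 0 throughout.

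**Figure D3:**
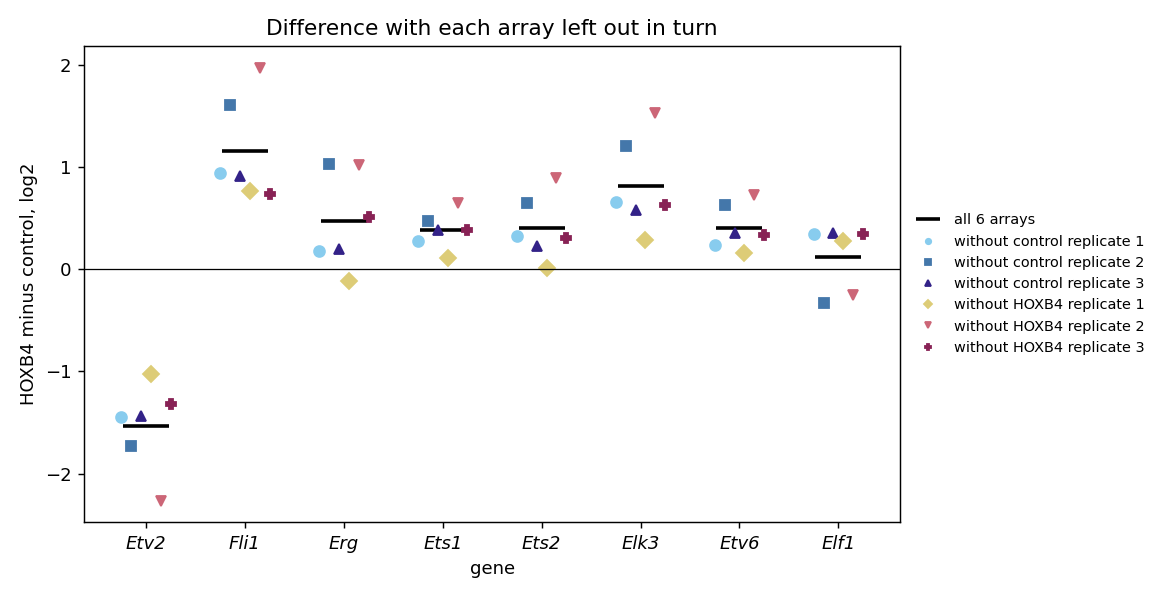
HOXB4 minus control (log2) for the 8 ETS genes with all 6 arrays (black bars) and with each array left out in turn (symbols). Etv2 is below 0 in every fit, from -2.26 to -1.02, and the symbols of Erg and Elf1 lie on both sides of 0.

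The list of ETS family genes outside these 8 named 18 genes, of which 16 had a single-gene feature. None passed, 9 lay above 0 and 7 below, and their median difference was 0.01. Their ranges over the 6 arrays had a median of 0.46, close to the 0.44 of all genes. The members with the smallest p were Elk1, a ternary complex factor phosphorylated by ERK (0.28, SE 0.14), Spi1, which encodes the myeloid factor PU.1 (0.27, SE 0.15), the epithelial factor Elf3 (-0.24, SE 0.16) and Etv4, a target of FGF signalling (-0.17, SE 0.14). Spi1 stood at 4.78, 4.85 and 5.15 in controls and at 5.30, 4.95 and 5.36 in HOXB4 cells, and HOXB4 replicate 2 again lay within the controls.

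**Figure D4:**
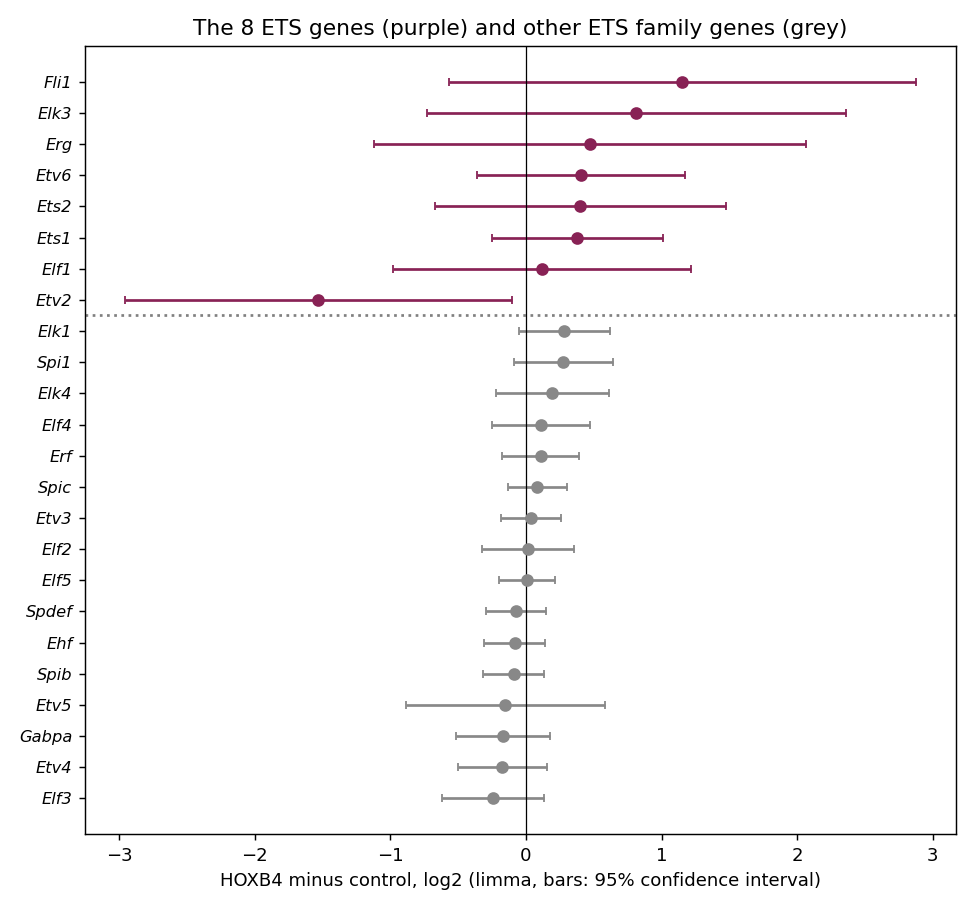
HOXB4 minus control (log2) with 95% confidence intervals from limma for the 8 ETS genes (purple, above the dotted line) and 16 other ETS family genes (grey). The Etv2 interval, -2.96 to -0.11, is the only purple one that does not cross 0, before any adjustment for the number of genes.

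Of 22 genes listed as targets of Etv2, Fli1 or Erg, 21 had a feature of their own. The list was drawn up with earlier results of these data known, so shared signs in it are not independent support. All 21 differences lay above 0, with a median of 0.48, beside 12288 of all 30702 genes above 0. Even so, none of the 21 passed, and 0 were counted at an unadjusted p of 0.05 in that direction (2.23% of all genes). In 0 did the groups not overlap upward (3.24% of all genes). The signs rested on HOXB4 replicate 1: without it 11 of 21 were above 0, with a median of 0.01. The median was 1.10 without HOXB4 replicate 2, 1.00 without control replicate 2 and 0.23 without control replicate 3. Without HOXB4 replicate 2, 10 of the 21 were counted at limma's unadjusted p of 0.05, beside 13.9% of all genes. In 19 of the 21 the 3 highest arrays were the same as for Fli1, and in 13 HOXB4 replicate 2 was the lowest.

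HOXB4 replicate 3 was below HOXB4 replicate 1 in 19 of the 21 genes, by a median log2 difference of -0.85, and in 13178 of all 30702 genes, where the median was 0.03. The exceptions were Gata2 and Tal1. Gata2, a zinc finger factor of stem and progenitor cells, was 8.65, 9.87 and 8.85 in controls and 11.01, 8.50 and 11.06 in HOXB4 cells, a difference of 1.07 (SE 0.72). Tal1, the bHLH factor that starts blood formation, was 8.18, 9.10 and 8.29 in controls and 9.63, 8.25 and 9.82 in HOXB4 cells, a difference of 0.71 (SE 0.45). Hhex, a homeodomain factor of early endothelium and blood, differed by 0.51 (SE 0.41). In these 3 genes, as in Fli1, HOXB4 replicates 1 and 3 were within 0.20 of each other. The same held for Lmo2 (log2 difference -0.05), whose range over the 6 arrays was only 0.28. Cdh5, which encodes the junction protein VE-cadherin, was 12.3, 14.1 and 11.8 in controls and 15.1, 11.3 and 12.9 in HOXB4 cells, with HOXB4 replicate 3 below both replicate 1 (log2 difference -2.19) and control replicate 2. Tie1 and Tek, the angiopoietin pathway receptors, were also lower in HOXB4 replicate 3 than in replicate 1, with log2 differences of -2.36 and -1.67, as was Erg. Flt1, a VEGF receptor, differed by 1.04 (SE 0.70) between groups and was lower in HOXB4 replicate 3 than in replicate 1 by a log2 difference of -0.58. For Lyl1, a bHLH factor of blood cells, the log2 difference between these 2 arrays was -0.53. These genes were set side by side after their values were seen, and the comparison rests on 2 arrays.

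**Figure D5:**
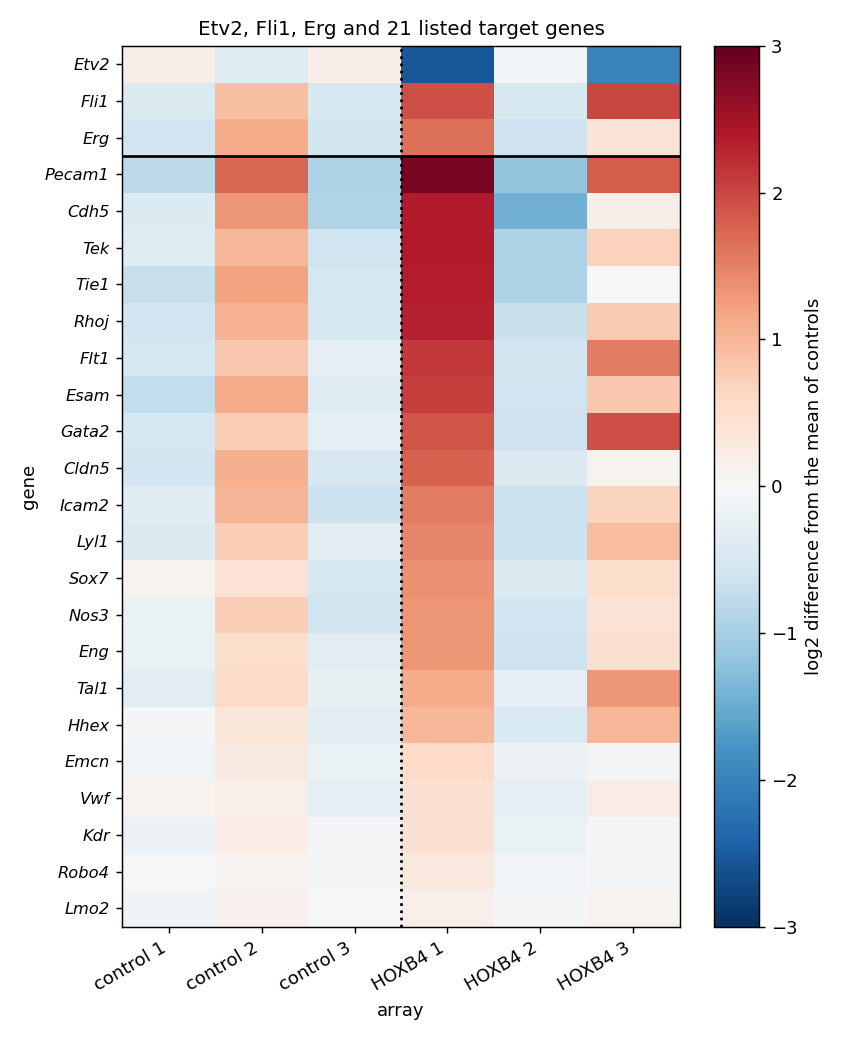
Log2 difference from the control mean in each array for Etv2, Fli1 and Erg (above the black line) and 21 listed target genes, sorted by HOXB4 replicate 1; red is higher and blue lower. In the column of HOXB4 replicate 3, Gata2 (1.94), Pecam1 (1.81), Flt1 (1.55) and Tal1 (1.30) are red like Fli1, while Cdh5 (0.18) and Tie1 (0.003) are near the control mean.

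The list of candidate upstream regulators and partners of Etv2, in which not every gene is an established regulator, had 16 measured genes, 8 above 0 and 8 below, with a median of 0.01. None passed. Wnt2, a secreted WNT ligand, had the smallest p, at 5.85, 5.45 and 5.29 in controls and 4.63, 5.18 and 4.73 in HOXB4 cells, a difference of -0.68 (SE 0.20) without overlap between groups, as in 10.2% of all genes in that direction. Foxh1, a Smad partner in Nodal signalling, was 12.0, 10.8 and 11.6 in controls and 9.39, 11.5 and 9.58 in HOXB4 cells (difference -1.33, SE 0.60). The BMP effector Smad5 differed by 0.26 (SE 0.12) and Creb1, a cAMP-responsive activator, by -0.23 (SE 0.13). Foxh1 shared its 3 lowest arrays with Etv2, namely HOXB4 replicates 1 and 3 and control replicate 2. Bmp4, a ligand that induces Flk1-positive mesoderm, did so too, at 14.7, 14.1 and 15.3 in controls and 12.6, 15.2 and 12.7 in HOXB4 cells (difference -1.17, SE 0.71).

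Markers of the cell types that the sorted fraction could hold were read on the same arrays, and none of them passed in the fit of all 6. In bulk RNA, fewer cells of a type and less RNA per cell cannot be told apart. The mean level of 9 endothelial markers ranged from 8.62 to 10.1 in controls and from 8.39 to 10.996 in HOXB4 cells, lowest in HOXB4 replicate 2. Each of the 9 was above 0 in its difference, and in 8 of the 9 the 3 highest arrays were the same as for Fli1. All 9 are also among the 21 target genes above, so the counts of both lists share these genes. Without HOXB4 replicate 1, 3 of the 9 were above 0 and their median difference was -0.12, against 0.48 with all arrays; it was 1.08 without control replicate 2, 1.28 without HOXB4 replicate 2, 0.20 without control replicate 1 and 0.23 without control replicate 3. The mean of 8 erythroid markers, 7 of them below 0, ranged from 7.37 to 8.26 in controls and from 7.07 to 8.27 in HOXB4 cells. In 6 of the 8 the 3 lowest arrays were the same as for Etv2. Hbb-bh1, an embryonic globin, was 12.6, 10.7 and 13.5 in controls and 10.02, 13.6 and 9.84 in HOXB4 cells. The 9 cardiac and paraxial markers (8 below 0) had means of 6.15 to 6.54 in controls and 5.48 to 6.30 in HOXB4 cells. Those of 7 smooth muscle markers (6 below 0) ranged from 7.09 to 7.79 and from 6.45 to 7.79. The median difference was -0.13 for the cardiac and paraxial list, against a mean difference of -0.57. For the smooth muscle list it was -0.19, against -0.55, so a few genes carried much of the change in these means. Among the cardiac markers, Hand1 was 13.79, 12.82 and 13.46 in controls and 8.98, 12.83 and 8.61 in HOXB4 cells. Its difference was -3.22 (SE 1.06; unadjusted p = 0.020 by limma). The smooth muscle marker Rgs5 differed by -2.96 (SE 1.13; unadjusted p = 0.035 by limma). Both differences were larger in size than that of Etv2, and both genes had the same 3 lowest arrays as Etv2. Without HOXB4 replicate 2, 2 of the cardiac and paraxial markers and 1 smooth muscle marker passed. The 8 markers of undifferentiated cells (7 above 0) ranged from 6.86 to 7.92 in controls and from 7.24 to 8.44 in HOXB4 cells. Endoderm markers (4 of 8 above 0) ranged from 5.71 to 5.78 and from 5.71 to 5.82, and the 7 myeloid markers (3 above 0), each below the median gene in mean level, from 4.16 to 4.27 and from 4.19 to 4.25. Among the markers of undifferentiated cells, Zfp42 differed by 0.69 (SE 0.23; unadjusted p = 0.021 by limma). All 3 HOXB4 arrays, replicate 2 included, lay above every control for Zfp42, as in 3.24% of all genes. Ttr, an endoderm marker, and Csf1r, a myeloid marker, were lower without overlap, as in 10.2% of all genes. None of the listed markers was below the background median of 3.15 in all 6 arrays. Only 276 of all 30702 genes were, so this does not show that a marker was expressed. The part of these cell types in the ETS values was not tested.

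The genes most like Etv2, Fli1 and Erg in profile were found by the root mean square difference between profiles, each centred on its mean over the 6 arrays, among 10375 other named genes at or above the median level. Closest to Etv2 were Amot, a regulator of YAP and cell migration (0.18), Ms4a4d (0.19), the kinase genes Rps6ka6 (0.21) and Prkaa2 (0.22), and Cfc1, a Nodal co-receptor (0.22). Amot was 14.9, 14.5 and 14.8 in controls and 12.6, 14.8 and 12.9 in HOXB4 cells. Closest to Fli1 were Ttc9 (0.12), Gata2 (0.12), the scaffold gene Akap5 (0.14), Arhgap18 (0.15) and Jazf1 (0.16), and of the other ETS genes Elk3 was nearest (0.30, rank 45). Closest to Erg were Cav1, the main protein of caveolae (0.07), the endothelial tight junction gene Cldn5 (0.14), Tlr4 (0.15), Icam2 (0.16) and Gimap4 (0.17), with Elk3 (0.34, rank 62) nearest among ETS genes. Cav1 was 4.56, 6.29 and 4.67 in controls and 6.67, 4.57 and 5.60 in HOXB4 cells. With Pearson correlation in place of this distance, 0 of the 5 genes named for Etv2, 0 of those for Fli1 and 1 of those for Erg were chosen again, so these names depend on the measure.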

How the data were processed

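RNA of 6 sorted samples taken at day 4 was measured on 1 array each. Per the labels' protocols, Trizol and column purification preceded WT PLUS labelling of 100 ng. The deposited values are log2 summaries per feature, which the authors made with Affymetrix Expression Console and RMA, per the submitters' processing notes, which name no versions or settings. RMA equalises arrays, so a shift common to most genes would be partly removed, and precision is limited by the number of arrays.

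Of 65956 features that were not controls, 31258 named 1 gene after symbols were updated through a RefSeq table (GRCm38.p6), 1492 named several and 33206 had no listed gene. Each of 30702 genes was represented by its brightest feature of 1 gene. Groups came from the sample titles. The 2 groups were compared by limma 3.58.1 (R 4.3.3) with lmFit and eBayes, two-sided, adjusted by Benjamini-Hochberg over all genes and without a replicate block. The steps were tested on simulated data, where 82 of 100 genes changed 2-fold and 99 of 100 changed 4-fold were recovered. The simulated noise was drawn independently for each gene and array. It lacked the array pattern shared by many real genes, so these rates do not carry over to the real arrays. Genes outside the 8 were named as the up to 4 of each list with the smallest unadjusted p, the 5 nearest profiles, or where a role sentence needed one. The profile search left out microRNA, predicted, clone and receptor-cluster genes. The members and lists were chosen with earlier results of these data known. Alternatives were a replicate block, 2 scalings, a dim filter, other features, another prior, array weights and each array left out. Tables and plots used Python 3.11.15 with matplotlib 3.10.9, numpy 2.4.6 and pandas 2.3.3.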

Additional observations from a re-analysis of the deposited data

How the results depend on the processing

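Over 14 alternatives, 109 of the 112 recomputed differences of the 8 genes kept their sign, and none of the 8 genes passed under any of them. In the block, dim filter, feature and prior alternatives the differences of these genes could not change, so their signs there were fixed in advance. The exceptions in sign were Erg, which ran from -0.12 to 1.03 with 1 array left out, and Elf1, which ran from -0.34 to 0.35. Genes called over the whole array numbered 0 in all but 1 alternative and ran from 0 to 46 with 1 array left out, the 46 without HOXB4 replicate 2. Deviations of same-numbered arrays from their group means correlated over genes at -0.40, -0.59 and -0.35. The sample titles only number the replicates, and these correlations cannot settle whether same-numbered samples were paired. With the replicate number as a block, 0 genes were called and 1294 were counted at an unadjusted p of 0.05, and the adjusted p of the 8 genes was 0.923 or higher. The profiles named as like Etv2, Fli1 and Erg were largely the same with cyclic loess, which chose again 5 of 5 genes for Etv2, 4 of 5 for Fli1 and 4 of 5 for Erg. For the mirrored Etv2 profile the choice moved more, with 3 of 5 chosen again. The number of arrays, 3 per group, limits the precision.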

Other observations

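The profile of Etv2 turned upside down was closest to those of Ebf1, a factor best known from B cell development (root mean square difference 0.24), Ptchd1 (0.26), Zfpm2, a GATA cofactor of the heart (0.28), Gchfr (0.31) and Nrg1, a growth factor of endocardium (0.32). Ebf1 was 7.29, 8.13 and 7.69 in controls and 9.70, 7.63 and 9.40 in HOXB4 cells. Fli1 ranked 23 (0.38) and Elk3 ranked 36 (0.41) among the same 10375 genes, ahead of Erg at 432 (0.70). With Pearson correlation in place of this distance, 0 of the 5 named genes were chosen again.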
